A study of Homo sapiens with 6 samples.

Results

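DNA damage and recombination repair genes were followed through RBM39 knockdown in SW480 cells. The set holds 38 listed genes of homologous recombination, the Fanconi anemia pathway, damage signalling and mismatch repair. It was chosen by name, with earlier results of these data known. All 38 passed the filter on low counts, among 18243 genes tested of 56303 in the count table. SW480 is a human colorectal cancer line. The series compared 3 libraries of cells carrying a non-silencing lentiviral hairpin (shCtrl, genotype given as WT) with 3 libraries of cells carrying a hairpin against RBM39 (shRBM39, genotype given as RBM39 knockdown). RBM39 encodes an RNA-binding splicing factor. According to the methods, puromycin selected stable clonal lines after infection, so both arms had the vector and the drug, and a difference between clones cannot be told apart from one of the hairpin. The replicates were described as separate experiments. The p-values set each group difference against the spread between these libraries, which does not cover a difference between clones.

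RBM39 itself stood at 441, 448 and 435 CPM (counts scaled to the library total with TMM factors) in shCtrl and at 266, 276 and 292 in shRBM39, a log2 fold change of -0.67 ± 0.04 (SE). Library totals lay between 18042924 and 20428901 counts. Of 10 colon epithelial markers, EPCAM, KRT8, KRT18 and KRT19 were abundant, and CDX1, an intestinal factor, was near 0 in all 6 libraries. Of the 9 tested, KRT8 and KRT18 were higher in shRBM39 and 5 were lower. These were CDX2 (from 21.7 ± 0.616 to 4.95 ± 0.529 CPM, SD, n = 3, log2 fold change -2.13), CDH17 (-1.34), LGR5 (-0.50), CDH1 (-0.39) and VIL1 (-0.09). Of 13 markers of other cell types, 6 stayed under 1 CPM in every library, and PTPRC had no count. Their summed level was 52.7 to 53.5 CPM in shCtrl and 54.2 to 61.7 CPM in shRBM39, with PECAM1, VWF, COL1A1 and ACTA2 higher and MSLN lower. The part of both marker lists in the results was not tested. In bulk RNA, a different share of cells in a cycle phase and a different amount of RNA per cell cannot be told apart.

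Homologous recombination restores a broken chromosome by copying the sister strand, which is present only after replication. BRCA1 and BARD1 favour resection of the break, PALB2 bridges BRCA1 to BRCA2, and the recombination mediators help the exposed strand to find and invade its copy. The Fanconi proteins form a ubiquitin ligase that marks the FANCD2 and FANCI pair at crosslinks, and the kinases ATM and ATR signal breaks and stalled forks to CHEK2 and CHEK1. Many of these genes are expressed most in S and G2 phase, and mutations in several of them cause inherited cancer predisposition.

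Most of the 38 repair genes were higher in shRBM39 than in shCtrl. With edgeR's quasi-likelihood test and a Benjamini-Hochberg adjusted p under 0.05 over all tested genes, 28 were called. Of these, 25 were higher and 3, FANCF, MUS81 and ATM, were lower. Among all tested genes 59.1% were called, 29.2% higher and 29.9% lower, against 65.8% and 7.89% of the repair genes. The median log2 fold change was 0.30 over the repair genes and -0.01 over all tested genes. No repair gene reached a 2-fold difference in this fit, though BLM, at 0.99 on the log2 scale, passed that size with DESeq2, with no filter, with the correction for GC content and length, and without the first shCtrl or the second shRBM39 library (1.065 and 1.031). A log2 fold change of at least 0.5 was reached by 12 called members, where 11.4% of all tested genes did so, and -0.5 or below was reached by FANCF alone, where 14.0% did. In 27 members the values of the groups did not overlap, as in 63.3% of all tested genes.

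The number of calls on each side changed with the processing. With library totals in place of TMM factors, the median over all tested genes moved from -0.01 to -0.14, and 20 members were called higher and 6 lower. On the deposited RPKM values, where both the scaling (library totals) and the test (limma) differ, 17 were called higher and 6 lower with either pseudocount. The share of higher calls among all calls in the table moved in parallel, from 49.4% to 33.9% and 33.6%. The median of the repair genes stayed above 0 in all of these, at 0.17 for library totals and at 0.14 and 0.17 for RPKM. The correction for GC content and length moved the counts the other way, to 27 higher and 2 lower. The repair gene median was then 0.35, and 54.4% of all calls in the table were higher.

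**Figure D1:**
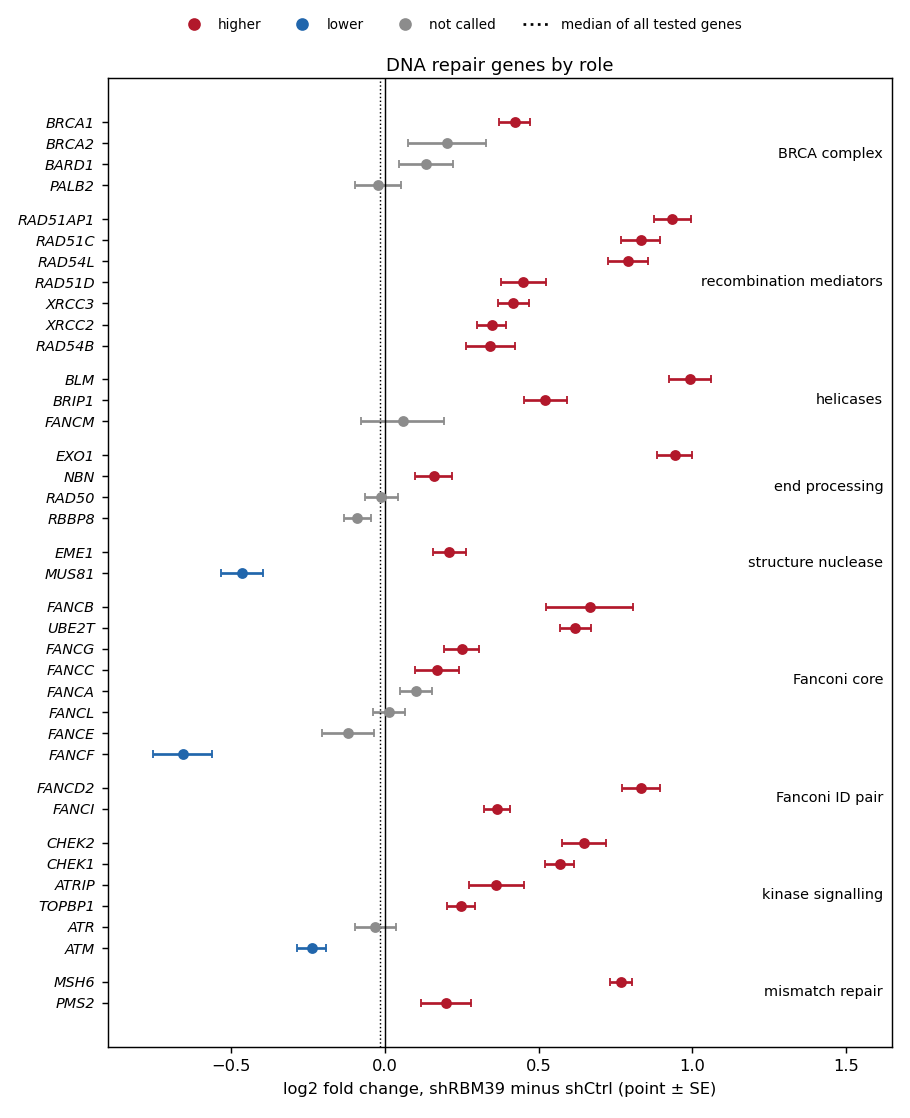
Log2 fold change (shRBM39 minus shCtrl, point with SE) of the 38 repair genes, grouped by role and coloured by call at adjusted p under 0.05. All 7 recombination mediators lie above 0, and FANCF, MUS81 and ATM are the 3 called lower.

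Promoters of 35 of the 38 genes were in RefSeq's promoter table (GRCh38.p14, 250 bases before to 50 after the start site). E2F factors drive S-phase transcription, and 4 E2F site variants (TTTGGCGC, TTTCCCGC, TTTGCCGC and TTTCGCGC, either strand) were searched as letters. They occurred in 8 of 35 members, or 22.9%, and in 3.33% of all 27305 promoters of this length. Over the 10702 promoters that matched a tested gene the share was 5.26%, and over the 3553 of those whose gene was called higher it was 7.12%. Of these 8 genes, 7 were called higher (EXO1, FANCC, FANCD2, MSH6, PMS2, TOPBP1 and XRCC2) and FANCA was not called. Among all 35 members, with or without a site, 22 were called higher. A match was thus in 7 of these 22 and in 1 of the other 13, and a link to the calls was not tested. The cell cycle homology letters TTTGAA or TTCGAA, found at genes of G2 and mitosis, were in 4 of 35 members (11.4%), a share near the 11% of promoters of tested genes, and in 16.6% of all promoters. The CCAAT box was in 17 of 35 (48.6%) against 36.6% and 35.7% of these. A match describes letters in the window and is no measured binding site. The windows of the 5 called members whose match lies nearest the start site are shown, as the letters these shares rest on, with the matched letters in capitals.
EXO1, chr1:241848197-241848226, plus strand: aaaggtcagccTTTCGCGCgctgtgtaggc
FANCD2, chr3:10026424-10026453, plus strand: cgtcgggcctgGCGGGAAAgtcgaaaacta
MSH6, chr2:47783137-47783166, plus strand: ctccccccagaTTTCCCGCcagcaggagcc
TOPBP1, chr3:133661930-133661959, minus strand: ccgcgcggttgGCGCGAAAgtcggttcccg
XRCC2, chr7:152676102-152676131, minus strand: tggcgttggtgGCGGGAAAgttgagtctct

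All 7 recombination mediators were called higher, with a median log2 fold change of 0.45. RAD51AP1 (chr12:4538798-4560048, GRCh38), which stimulates strand pairing, had 23.3, 21.7 and 22.7 CPM in shCtrl and 41.7, 40.6 and 46.8 CPM in shRBM39. The groups lay far apart, with a log2 fold change of 0.93 ± 0.06 (adjusted p = 1.61e-15). RAD51C (chr17:58692573-58735611), a mediator of strand exchange, had 19.8, 20.1 and 19.5 CPM in shCtrl and 32.2, 35.4 and 38.3 CPM in shRBM39. Every shRBM39 library was above every shCtrl library, with a log2 fold change of 0.83 ± 0.06 (adjusted p = 1.84e-13). RAD54L (chr1:46247688-46278473), a motor protein that acts during strand exchange, had 16.4, 15.03 and 15.7 CPM in shCtrl and 27.5, 26.9 and 27.1 CPM in shRBM39, or 0.79 ± 0.06 on the log2 scale (adjusted p = 1.21e-12).

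RAD51D (chr17:35092208-35121522), another mediator, had 15.3, 15.8 and 13.9 CPM against 21.3, 19.3 and 20.8 CPM. The groups did not overlap, and the log2 fold change was 0.45 ± 0.07 (adjusted p = 1.93e-06). The mediators XRCC3 and XRCC2 rose by 0.42 ± 0.05 and 0.35 ± 0.05, and RAD54B, a relative of RAD54L, by 0.34 ± 0.08. Some mediators have exons that lie over other genes. XRCC3 shared 76.7% of its exon bases with KLC1 on the opposite strand, RAD54B 51.3% with FSBP on its own strand, and RAD54L 25.1% with LRRC41 on the opposite strand. KLC1 was higher by 0.25, whereas FSBP (log2 fold change 0.12) and LRRC41 (-0.06) were not called. The strand setting of the counting was not given in the sources used here, so reads of such pairs cannot be told apart. Of the 29 members that share under 15% of their exon bases with another gene, 19 were called higher and 3 lower.

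In the BRCA complex only BRCA1 was called. BRCA1 (chr17:43044295-43170245), the ubiquitin ligase that acts with BARD1, had 35.7, 38.7 and 36.9 CPM in shCtrl and 51.9, 47.9 and 49.4 CPM in shRBM39. The groups were apart, at 0.42 ± 0.05 on the log2 scale (adjusted p = 5.63e-09). BRCA2 (chr13:32315474-32400266), a central mediator of homologous recombination, had 5.76, 4.33 and 4.82 CPM against 5.72, 5.11 and 6.25 CPM. Its groups overlapped, it rested on 88 to 121 counts per library, and its log2 fold change of 0.20 ± 0.13 did not pass (adjusted p = 0.174). A correction for GC content and length made it 0.34 with an adjusted p of 0.0228 in the same test. PALB2 (chr16:23603160-23641310), the link between both, had 14.5, 14.9 and 15.4 CPM against 14.8, 15.05 and 14.4 CPM, with overlapping groups and a log2 fold change of -0.02 ± 0.07. BARD1 was at 0.13 ± 0.09 and was not called.

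The helicases BLM and BRIP1 rose, and FANCM was not called. BLM (chr15:90717327-90816165), which dissolves crossed strands and unwinds DNA for resection, had 16.0, 14.2 and 13.9 CPM in shCtrl and 29.7, 27.8 and 30.3 CPM in shRBM39. Levels thus were 1.99-fold apart with no overlap, at 0.99 ± 0.07 on the log2 scale (adjusted p = 1.20e-14). That fold lay within its SE of those of EXO1 and RAD51AP1, and their order changed between alternatives. BRIP1 (chr17:61681266-61863521), a helicase that binds BRCA1, had 14.1, 15.3 and 15.6 CPM against 21.7, 21.0 and 21.9 CPM, or 0.52 ± 0.07 (adjusted p = 6.02e-08). FANCM, the translocase that anchors the Fanconi core complex, was not called, at 0.06 ± 0.13 and 68 to 88 counts per library.

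Among the genes that process broken ends, EXO1 and NBN were called higher, and RAD50 and RBBP8 were not called. EXO1 (chr1:241847967-241895148), which carries out long-range resection, had 20.8, 21.4 and 21.9 CPM in shCtrl and 43.0, 41.4 and 38.9 CPM in shRBM39. The groups were 1.92-fold apart, with a log2 fold change of 0.94 ± 0.06 (adjusted p = 4.74e-16). RAD50, a subunit of the complex that starts resection, was at -0.01 ± 0.05 (called lower with library totals, at -0.13), and RBBP8, its cofactor, at -0.09 ± 0.04 (adjusted p = 0.0734). RBBP8 was called lower without the third shRBM39 library, at -0.12 (adjusted p = 0.0283). It was also called lower with library totals (-0.21), with upper-quartile scaling (-0.12), with at least 10 counts in every library (-0.10) and on RPKM (-0.20 and -0.21). NBN, another subunit of that complex, was higher by 0.16 ± 0.06 (adjusted p = 0.0233), with overlapping groups. Its call was lost without the first or second shCtrl library or the third shRBM39 library (adjusted p = 0.0629, 0.114 and 0.149).

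The nuclease pair that cuts branched DNA split in direction. MUS81, the catalytic subunit (chr11:65857126-65867653), fell from a mean of 25.9 ± 1.12 CPM (SD, n = 3) to 18.8 ± 1.54 CPM, with a log2 fold change of -0.46 ± 0.07 (adjusted p = 3.35e-07 by edgeR). EME1, its partner, rose by 0.21 ± 0.05 (adjusted p = 0.00109). EME1 shared 16.4% of its exon bases with LRRC59 on the opposite strand, which was higher by 0.65. MUS81 shared 13.9% with CFL1, also on the opposite strand.

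Of the 8 genes grouped here as the Fanconi core, 4 were called higher, 3 were not called and FANCF was lower. This group counts UBE2T, which is no subunit of the core complex, and leaves out FANCM, given with the helicases. UBE2T (chr1:202331657-202341980), the ubiquitin-conjugating enzyme of the pathway, had 39.9, 38.02 and 38.4 CPM in shCtrl and 57.6, 57.3 and 63.7 CPM in shRBM39. The groups did not overlap, at 0.62 ± 0.05 on the log2 scale (adjusted p = 6.67e-13). FANCB (chrX:14843407-14873069), a core subunit with 61 to 119 counts per library, had 3.72, 2.87 and 3.54 CPM against 6.07, 4.71 and 5.21 CPM, or 0.67 ± 0.14 (adjusted p = 1.24e-04). FANCF (chr11:22622519-22626787), an adaptor within the core, had 12.7, 12.9 and 14.0 CPM in shCtrl and 6.94, 9.06 and 9.19 CPM in shRBM39. It stood 36.5% lower with no overlap, at -0.66 ± 0.10 on the log2 scale (adjusted p = 3.86e-07).

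FANCL (chr2:58159243-58241372), the subunit that is the ubiquitin ligase itself, had 36.2, 36.2 and 36.7 CPM in shCtrl and 36.6, 35.6 and 37.8 CPM in shRBM39. The groups overlapped and the log2 fold change was 0.01 ± 0.05, whereas on RPKM limma called it lower (-0.10 and -0.11). FANCA (chr16:89737549-89816657), a core subunit, had 37.4, 37.7 and 34.5 CPM against 38.1, 40.4 and 39.2 CPM. The shRBM39 libraries were all higher, but by only 0.10 ± 0.05 (adjusted p = 0.0965). With the correction for GC content and length FANCA reached 0.21 (adjusted p = 7.20e-04), and 23.6% of its exon bases lie over ZNF276 on the opposite strand, which was lower by 0.16. FANCE (chr6:35452361-35467103), which docks FANCD2 to the core, had 14.1, 12.6 and 11.7 CPM against 11.3, 12.4 and 11.7 CPM. Its groups overlapped, at -0.12 ± 0.09 (adjusted p = 0.233), and it was called lower with library totals (-0.24) and on RPKM (-0.20 and -0.23). FANCG rose by 0.25 ± 0.06, and FANCC by 0.17 ± 0.07 (adjusted p = 0.0392). Of the 6 refits that each left out a library, FANCC kept its call only in the one without the second shCtrl library, and the others gave adjusted p from 0.0504 to 0.107.

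Both substrates of the core rose. FANCD2 (chr3:10026414-10101930) had 20.2, 24.0 and 21.6 CPM in shCtrl and 40.6, 37.5 and 39.0 CPM in shRBM39. The values were 1.78-fold apart, with a log2 fold change of 0.83 ± 0.06 (adjusted p = 5.63e-14). The row of its pseudogene FANCD2P2 held 7 counts over 6 libraries. FANCI rose from 64.6 ± 1.84 to 83.2 ± 1.61 CPM (SD, n = 3), or 0.36 ± 0.04 on the log2 scale.

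Of the damage kinases, the effectors CHEK1 and CHEK2 rose, ATM fell and ATR was not called. CHEK1 (chr11:125625136-125676255), the effector of ATR, had 42.0, 47.0 and 43.5 CPM in shCtrl and 66.3, 64.3 and 66.0 CPM in shRBM39. The groups were apart by 0.57 ± 0.05 on the log2 scale (adjusted p = 1.77e-12). CHEK2 (chr22:28687743-28742422), the effector of ATM, had 14.7, 13.0 and 14.8 CPM against 23.3, 21.6 and 21.6 CPM, or 0.65 ± 0.07 (adjusted p = 1.51e-09). The 4 CHEK2 pseudogene rows held no count, and how reads that map to several places were treated was not given in the sources used here.

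ATM (chr11:108222484-108369102), the kinase that answers double-strand breaks, had 49.8, 52.7 and 52.4 CPM in shCtrl and 43.8, 43.2 and 44.4 CPM in shRBM39. It was lower by 15.1% with no overlap, at -0.24 ± 0.05 on the log2 scale (adjusted p = 5.55e-05). With the correction for GC content and length the call was lost, at -0.06 (adjusted p = 0.268). ATR (chr3:142449235-142578826), the kinase of stalled forks, had 20.8, 21.6 and 21.8 CPM against 22.0, 18.9 and 21.8 CPM. The groups overlapped, with a log2 fold change of -0.03 ± 0.07. Its partner ATRIP rose by 0.36 ± 0.09 and its activator TOPBP1 by 0.25 ± 0.05. ATRIP shared 33.8% of its exon bases with TREX1 on the same strand, which was not called (0.20).

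Both mismatch repair members were called higher. MSH6 (chr2:47695530-47810101), a subunit of the complex that finds mismatches, had 157, 158 and 158 CPM in shCtrl and 265, 266 and 275 CPM in shRBM39. The shRBM39 values were 1.70-fold those of shCtrl with no overlap, at 0.77 ± 0.04 on the log2 scale (adjusted p = 8.54e-19). MSH6 shared 16.2% of its exon bases with FBXO11 on the opposite strand, which was lower by 0.16. PMS2, an endonuclease of mismatch repair, was at 0.20 ± 0.08 (adjusted p = 0.0315) with overlapping groups. Its call was lost without the first or the third shCtrl library, or without the first or the second shRBM39 library (adjusted p from 0.0662 to 0.176). PMS2 is uncertain also because 11 rows of its pseudogenes held 15751 counts against its own 1785.

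**Figure D2:**
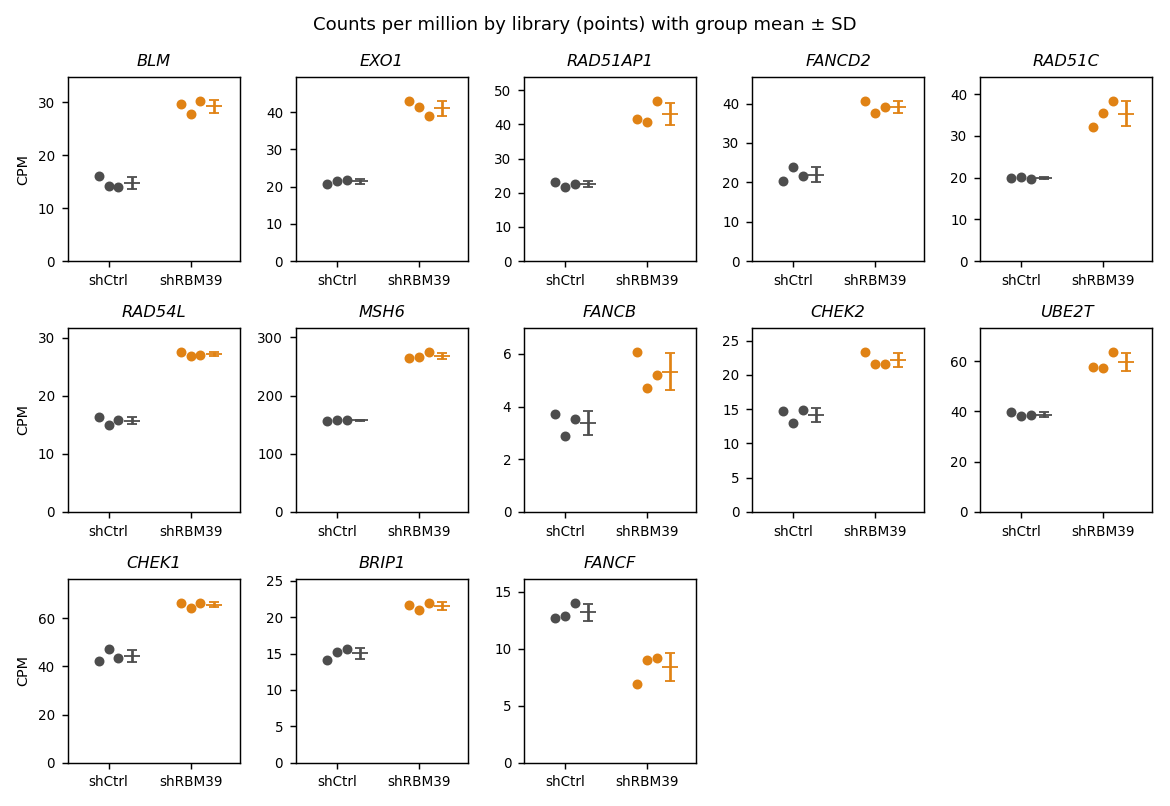
CPM (vertical axis, from 0) of the 13 members called with an absolute log2 fold change of at least 0.5, 1 point per library with the group mean and SD beside the points. The groups do not overlap in any of the 13, which were picked on these same values, so this is no separate evidence. FANCF is the only member with the higher values in shCtrl.

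Other genes of the same pathways, from 5 lists that hold none of the 38, also leaned upward. These lists too were chosen with earlier results of these data known. Of their 91 genes, all tested, 52 were called higher and 15 lower, with a median log2 fold change of 0.26. Among all tested genes 29.2% were called higher and 29.9% lower, with a median of -0.01. The counts of each list below are to be read beside these shares. In homologous recombination and resection, 17 of 31 were higher and 5 lower. The resection nuclease DNA2 (1.07 ± 0.07) and the single-strand binder RPA2 (0.80 ± 0.04) were among the highest on the log2 scale. The nuclease ERCC4 (-0.55 ± 0.11), the annealing factor RAD52 (-0.48 ± 0.08) and RMI2, a partner of BLM (-0.20 ± 0.09), were lowest among the called.

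In damage signalling and checkpoint, 16 of 26 genes were higher and 4 lower. CLSPN, which hands the ATR signal to CHEK1, rose most (1.39 ± 0.04), before the phosphatase CDC25A (1.06 ± 0.07) and the fork protector TIPIN (0.74 ± 0.07). The BRCA1-recruiting factor UIMC1 (-0.41 ± 0.04), the ATR activator ETAA1 (-0.39 ± 0.08) and the p53 ligase MDM2 (-0.19 ± 0.07) fell. In the Fanconi list 6 of 12 were higher and 2 lower, among them FAAP24 (0.58 ± 0.13), APITD1 (0.57 ± 0.06) and MAD2L2 (0.27 ± 0.05) against REV3L (-0.40 ± 0.07) and FAN1 (-0.21 ± 0.06).

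In end joining, the pathway that needs no sister strand, 7 of 15 genes were higher and 4 lower. Of all tested genes, 29.2% were higher and 29.9% lower. The Ku subunits XRCC6 (0.74 ± 0.04) and XRCC5 (0.64 ± 0.04) and the ligase scaffold XRCC4 (0.68 ± 0.12) rose. The ligase LIG4 (-0.49 ± 0.11), the polymerase POLL (-0.46 ± 0.07) and the nuclease DCLRE1C (-0.31 ± 0.08) fell. In mismatch repair 6 of 7 were higher and none lower, led by PCNA (1.25 ± 0.04) and LIG1 (1.09 ± 0.04).

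Cell cycle genes moved with the repair genes. All 32 genes of a G1/S list were higher, with a median log2 fold change of 0.91, led by MCM6 (1.85 ± 0.04), UNG (1.54 ± 0.06) and UHRF1 (1.44 ± 0.04). Their summed level was 2667 to 2703 CPM in shCtrl and 4784 to 4846 CPM in shRBM39. Of 50 G2/M genes 45 were higher and CENPE and LBR were lower (-0.28 ± 0.08 and -0.11 ± 0.05), with a median of 0.50. BIRC5 (1.19 ± 0.04), TUBB4B (1.11 ± 0.04) and CCNB1 (1.07 ± 0.04) led that list. The part of these cell cycle genes in the repair gene results was not tested.

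**Figure D3:**
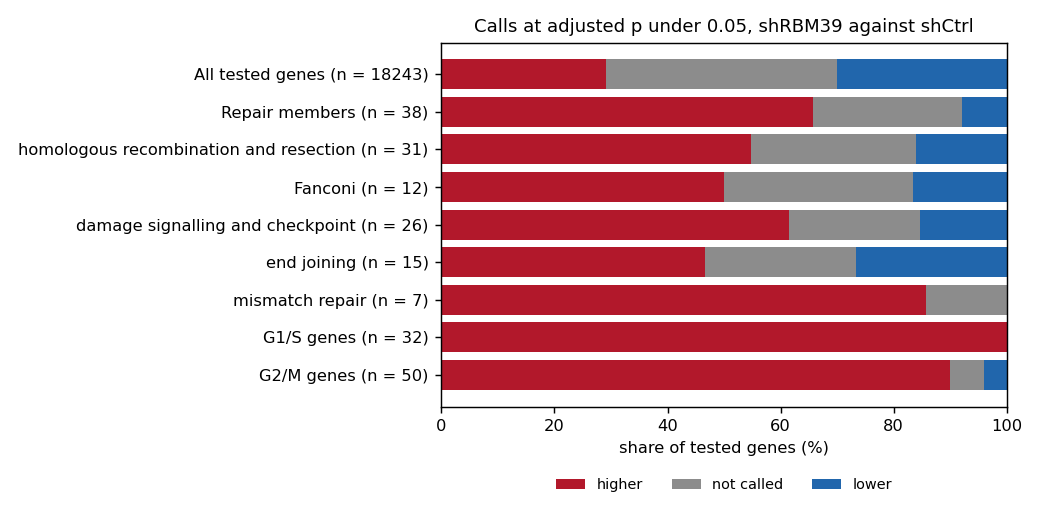
Share of tested genes (percent, horizontal axis) called higher, not called or called lower in shRBM39, for all tested genes, the 38 repair members and 7 lists that hold none of them. The G1/S bar is higher throughout, and the end joining bar has the largest lower share of the 7 lists. Over all tested genes the lower share is 29.9%.

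Levels were compared between genes per kilobase of exon, with the deposited RPKM, which carry no TMM factor. In shCtrl, UBE2T was highest at 37.9 ± 0.626 RPKM (SD, n = 3), before RBBP8 at 17.4 ± 0.260, FANCL at 15.7 ± 0.217 and MSH6 at 14.95 ± 0.222. The lowest were FANCB at 1.09 ± 0.137, FANCM at 0.501 ± 0.0347 and BRCA2 at 0.422 ± 0.0574 RPKM. Of the 37 pairs of neighbours in this order, 22 overlapped over the shCtrl libraries, so the order is loose in its middle. In shRBM39, MSH6 at 23.4 ± 0.495 RPKM stood above RBBP8 at 15.02 ± 0.589 and FANCL at 14.6 ± 0.478.

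**Figure D4:**
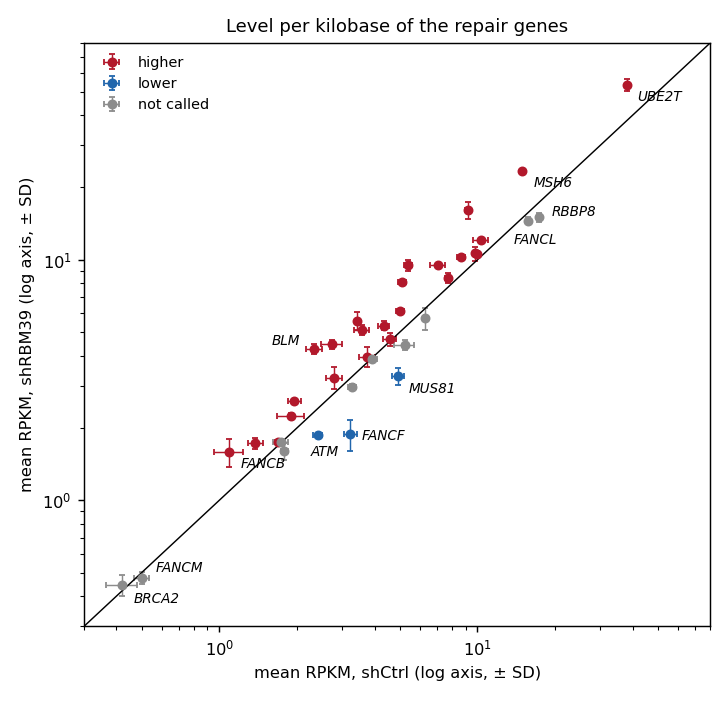
Mean RPKM in shRBM39 against mean RPKM in shCtrl for the 38 repair genes (log axes, bars give SD over 3 libraries), coloured by the call of the count test, with the line of equality. Levels run from 0.422 RPKM for BRCA2 to 37.9 for UBE2T in shCtrl, and the 3 members called lower lie under the line.

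The repair genes were longer than most. Their median merged exon length was 6067.5 bases, against 3901 over all tested genes, with 18 against 8 merged exons, a span of 59.2 against 22.7 kb and a GC content of 41.9% against 49.3%. The 10 members not called were longer still, with a median of 7267.5 bases and 27 exons, against 6068 bases and 18 exons in the 25 called higher. Across the 38 genes the fold change followed none of these closely (Spearman's rho -0.12 for exon length, 0.02 for GC content and 0.06 for the shCtrl RPKM), where all points share the same 6 libraries.

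The splicing table listed 13 records in 9 of the 38 genes, or 23.7%, against 6.54% of all tested genes. These shares were not matched for exon number, with a median of 18 merged exons in the members against 8. The records are rMATS events that the authors had selected on these reads, and the table names its sides group 1 and group 2 without saying which is the knockdown. The levels below are therefore a description with no test and no direction. They give the fraction of transcripts with the exon, corrected for the length that can yield reads. Only CHEK1, FANCA and FANCL had at least 20 reads in every library, where 2.48% of all tested genes had such a record. A skipped exon whose length is no multiple of 3 shifts the reading frame.

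CHEK1 had the record with by far the most reads. It concerns exon 3 of 13 in the canonical GENCODE v44 transcript, a coding exon of 224 bases, which is no multiple of 3. The exon was included at 0.780, 0.808 and 0.829 in group 1 and at 0.921, 0.885 and 0.920 in group 2, on 394 to 566 reads per library. The groups did not overlap, with means of 0.806 ± 0.0246 and 0.909 ± 0.0205 (SD, n = 3). Reads that skip the exon numbered 53, 43 and 35 in group 1 and 12, 21 and 13 in group 2. This exon is shown with those of CHEK2 and FANCL, the other single exons with the most reads among the records, with exon bases in capitals and 20 intron bases on each side in lower case.
CHEK1 exon 3, chr11:125627607-125627830, plus strand: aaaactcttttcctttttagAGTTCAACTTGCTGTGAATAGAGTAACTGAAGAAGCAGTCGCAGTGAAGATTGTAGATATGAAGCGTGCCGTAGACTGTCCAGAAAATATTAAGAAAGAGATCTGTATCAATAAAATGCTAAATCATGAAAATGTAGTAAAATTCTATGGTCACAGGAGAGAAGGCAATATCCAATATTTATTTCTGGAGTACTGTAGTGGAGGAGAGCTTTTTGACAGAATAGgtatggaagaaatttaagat
CHEK2 exon 10, chr22:28696901-28696987, minus strand: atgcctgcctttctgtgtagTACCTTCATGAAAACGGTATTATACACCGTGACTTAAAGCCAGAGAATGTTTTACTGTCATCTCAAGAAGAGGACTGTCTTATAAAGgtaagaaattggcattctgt
FANCL exon 11, chr2:58162866-58162947, minus strand: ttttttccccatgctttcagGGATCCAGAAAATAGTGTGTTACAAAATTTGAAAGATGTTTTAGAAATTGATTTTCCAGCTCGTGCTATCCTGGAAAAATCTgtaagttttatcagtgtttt

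CHEK2 was listed for exon 10 of 15, which has 87 bases and keeps the frame. Group 1 libraries included it at 0.593, 0.375 and 0.60, group 2 libraries at 1.0, 0.796 and 0.844. The groups were apart, but on 14 to 28 reads per library. FANCL was listed for exon 11 of 14, of 82 bases and out of frame, with levels of 0.734, 1.0 and 0.816 for group 1 and of 1.0, 0.963 and 1.0 for group 2. Its groups overlapped, and the skipped form rested on 8 reads in group 1 and 1 read in group 2. FANCA was listed for exons 37 and 38 as exclusive of each other. The form with exon 37 was at 0.554, 0.264 and 0.395 in group 1 and at 0.715, 0.578 and 0.561 in group 2, on 25 to 42 reads, without overlap.

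**Figure D5:**
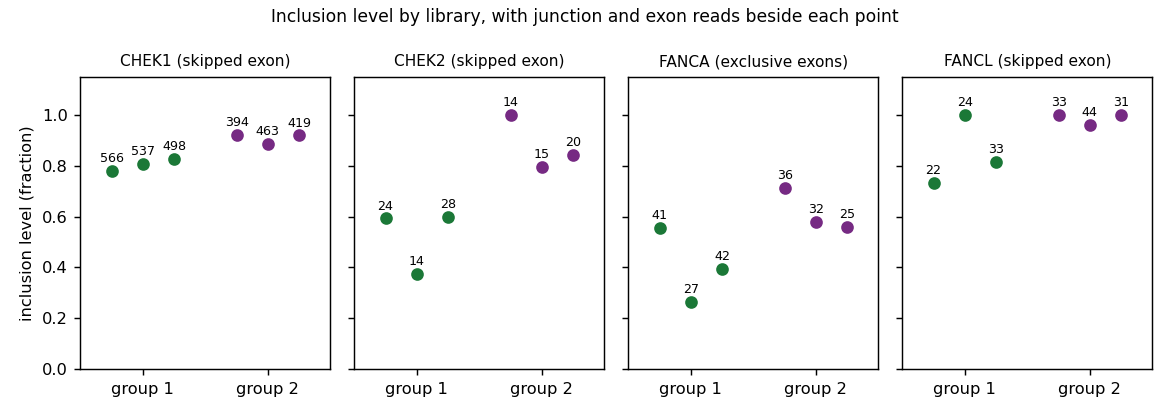
Inclusion level (fraction, vertical axis from 0) in each library of group 1 and group 2 for the records of CHEK1, CHEK2, FANCA and FANCL, with the number of reads of both forms beside each point. CHEK1 rests on 394 reads or more in every library, the other 3 on 14 to 44, and only FANCL overlaps between the groups.

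The other records were too thin to place. FANCD2 had 2, exons 7 and 8 as exclusive exons on 5 to 12 reads per library and exon 30 on 4 to 16. EXO1 had exon 3 of 16, which lies before the coding part, on 2 to 19 reads. RAD51D had 4 records that share exon 3 and so are not independent, on 1 to 7 reads per library. FANCE had exons 3 and 4 as exclusive exons on 1 to 7 reads. BRCA1 was listed for an alternative donor site of exon 10, the long exon of 3426 bases, which can be cut to 117. The short form had 1 read in group 1 and 3 in group 2, so single reads set its levels.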

How the data were processed

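RNA of SW480 cells (3 shCtrl and 3 shRBM39 libraries) was sequenced after a stranded kit with molecular identifiers. The submitters' processing notes name Trimmomatic 0.36, STAR 2.5.3a, featureCounts, Subread 1.5.1, edgeR 3.12.1 and GRCh38. Whether counts were of deduplicated molecules, the strand setting and the annotation release were not given in the sources used here. The authors deposited whole read counts per gene, RPKM values scaled by exon length and library total, a table of selected splicing records with reads and inclusion levels (other units: fractions with 3 values per group), and a summary of event numbers. The columns of the count table named NC were read as shCtrl. The p, FDR and group difference columns of the records and the numbers of significant events hold the authors' own comparisons and were not used.

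Counts were filtered with filterByExpr, scaled by TMM and tested with edgeR 4.0.16 (glmQLFit and glmQLFTest), adjusted by Benjamini-Hochberg over 18243 genes at 0.05. SE is the log2 fold change over the root of F. Log2 fold changes here are shRBM39 minus shCtrl. The fits were tried on simulated data in which 200 genes were changed, far fewer than were called here, with a common dispersion. With no GC trend edgeR recovered 198 of the 200 and made 12 false calls. With a simulated GC trend the uncorrected fit recovered 175 and made 471 false calls. The corrected fit recovered 193 and made 9. The main fit here is uncorrected. Exon positions were compared with GENCODE v44 (1391 of 1578 member exons identical), starts of the splicing table were moved to count from 1, and promoters came from RefSeq. Alternatives were DESeq2 1.42.0, other scalings and filters, limma 3.58.1 on log2(RPKM + 1) and log2(RPKM + 0.1), a GC and length correction by offsets, a block for replicate number and leaving out each library. Libraries of 18042924 to 20428901 counts limit low genes most, and counting error is only part of the spread.

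The members and lists were chosen with earlier results of these data known. Named with values per library were members called with an absolute log2 fold change of at least 0.5, those with a splicing record, and BRCA1, BRCA2, PALB2, FANCD2, ATM, ATR and CHEK1, and of each list the 3 highest and 3 lowest called genes. Some genes that this rule names are not reported here.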

Additional observations from a re-analysis of the deposited data

How the results depend on the processing

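All 28 called members kept their direction under the alternatives run, and 19 also kept their call at 0.05. The count called stayed between 23 and 29 of 38. The count called lower, 3, was 6 with library totals and with limma on RPKM at either pseudocount, and 19 higher and 3 lower were left among 29 members that share under 15% of exon bases with another gene, a choice made after seeing the data. The call was lost on RPKM only for RAD54B, ATRIP and TOPBP1, on RPKM and with library totals for FANCG and EME1, and on these, with DESeq2 and with upper-quartile scaling for FANCC, NBN and PMS2. FANCC was also lost with no filter (adjusted p = 0.0569). Calls were gained by RBBP8 (lower, in 6 alternatives), by FANCE (lower, with library totals and on RPKM), by RAD50 (lower, with library totals), by FANCL (lower, on RPKM) and by BRCA2 and FANCA (higher, with the GC and length correction). Uncalled members near 0 changed sign. With library totals FANCM was at -0.066, FANCA at -0.023 and FANCL at -0.11, on log2(RPKM + 1) they were at -0.022, -0.016 and -0.10, and on log2(RPKM + 0.1) at -0.057, -0.020 and -0.11. Upper-quartile scaling put FANCL at -0.019, and the GC and length correction put RAD50 at 0.092 and ATR at 0.10. Leaving out 1 library gave PALB2 -0.034 to 0.0014, FANCL -0.0056 to 0.039, RAD50 -0.098 to 0.049 and ATR -0.064 to 0.037. The causes were not tested. Members with a splicing record numbered 3 with at least 20 reads in every library and 5 with levels that do not overlap. Both held for CHEK1 and FANCA alone. The authors had selected these records on the same reads, so a lack of overlap is no separate evidence. The difference of CHEK1 (group 1 minus group 2), -0.10, was -0.05 without the length correction of levels. Replicate numbers did not pair the libraries (correlations of deviations 0.01, -0.05 and 0.04 over 12058 genes), and with the replicate block 28 members were called, 25 higher and 3 lower. Depth limits BRCA2, FANCM and FANCB and most splicing records.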
